A study of Mus musculus with 6 samples.

Results

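The 10 genes *Jak1*, *Jak3*, *Stat5a*, *Stat5b*, *Stat6*, *Socs1*, *Socs2*, *Socs3*, *Cish* and *Pim1* were followed in CD4-CD8+ TCRβhigh T cells of WT and BIT mice. They were picked by symbol from a table of 78275 genes, and each symbol matched 1 row. RNA was sequenced from cells of 3 WT and 3 BIT mice on the C57BL/6 background, 1 library per mouse, sorted to a purity above 98%. BIT mice are homozygous for an allele in which the sequence of *Psmb11*, encoding the thymoproteasome subunit β5t, was placed at the start of *Psmb8*, encoding the immunoproteasome subunit β5i, so that every cell that uses *Psmb8* carries the exchange, and no other allele and no cytokine or other treatment is named for either group. The labels give males of 9 to 10 weeks for both groups and lymph nodes as the source, whereas their protocol also names spleens. The study worked with a single line of BIT mice except where it names others, and it names no other for these libraries.

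The genes encode the wiring between cytokine receptors and the nucleus. IL-2, IL-7 and IL-15, which sustain CD8+ T cells, signal through receptors that hold the common γ chain. The kinases JAK1 and JAK3 are bound to these receptors and phosphorylate STAT5A and STAT5B, which then enter the nucleus and switch on genes. STAT6 does the same downstream of the IL-4 receptor. Among the genes that STAT5 switches on are *Cish*, *Socs1*, *Socs2* and *Socs3*, whose proteins bind receptors or kinases and damp the signal, and *Pim1*, a kinase that favours survival. Transcripts of these feedback genes turn over quickly, and in T cells they are commonly read as a sign of recent cytokine signals. Phosphorylation of the STAT proteins was not measured here.

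STAT5 binds the palindrome TTCNNNGAA, and STAT6 favours the same half-sites with 1 more base between them, TTCNNNNGAA. Both patterns were searched in GRCm39, on both strands, from 250 bases before to 50 bases after every transcript start that Gencode M39 annotates for a gene. Sites of the feedback genes are shown because these are the genes through which STAT5 would be read in the RNA. Each has the matching letters in capitals, 5′ to 3′ on the strand of the gene.
Cish, first pair: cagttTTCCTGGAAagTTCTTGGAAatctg
Cish, second pair: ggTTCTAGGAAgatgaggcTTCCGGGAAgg
Socs2, pair: gcggaTTCCTGGAAagTTCCTGGAAagcgg
Socs3, single: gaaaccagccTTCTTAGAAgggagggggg
Socs1, single: gctagccgggTTCCAAGAAgggtcgagat
The pairs of *Cish* lie at chr9:107173853-107173882 and chr9:107173961-107173990 on the plus strand, the second of them between 118 and 123 bases before annotated starts, and both inside an annotated exon of *Cish*. The pair of *Socs2* lies at chr10:95252761-95252790, the site of *Socs3* at chr11:117860328-117860356 and that of *Socs1* at chr16:10603835-10603863, all on the minus strand and within an annotated exon of their gene. Single sites of *Socs2* at chr10:95253788-95253816 and chr10:95254141-95254169 are not printed. *Cish* and *Socs2* each held 4 distinct sites of this pattern, which 0.211% of 21757 protein-coding genes did at 4 or more, whereas *Pim1*, *Jak1*, *Jak3*, *Stat5a*, *Stat5b* and *Stat6* had 0 matches. Genes with more annotated starts had more windows to match in, 36 for *Socs2* and 4 for *Cish*. Of all 168696 start windows searched, 7.25% held the 9-letter pattern and 5.82% the 10-letter one. Counted by gene, 23.5% of the 21757 held the 9-letter pattern and 20.2% the 10-letter one. *Jak1*, *Jak3*, *Stat5a* and *Cish* each held 1 site of the 10-letter pattern, and *Stat5b*, *Stat6*, *Socs2*, *Socs3* and *Pim1* held 0. *Socs1* held 3 sites of the 10-letter pattern, among them the following, 79 bases before its start.
Socs1, 10-letter pattern: aggccaccgcTTCCTGGGAAgcccaagcca
This window is chr16:10603944-10603973 on the minus strand and lies outside the exons of *Socs1*. A match in these letters is a description of the sequence and not a measurement of binding.

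Library totals lay between 37467678 and 52922675 estimated counts. The genotypes matched the labels, with 8024 to 10790 counts of *Psmb8* in the WT libraries against 59 to 73 in the BIT libraries, and with *Psmb11* at 0 in the former and at 1226 to 1926 in the latter. The summed level of 6 CD8+ T cell markers was between 3525 and 4258 CPM (a gene's counts relative to the total of its library, scaled by TMM) in WT mice and between 3653 and 4355 CPM in BIT mice, and that of *Cd4*, *Zbtb7b* and *Foxp3* was below 5 CPM in each library. WT replicate 3 went against its label of a male, with *Xist* at 66626 counts and each of 4 Y-linked genes at 0. Values without it are given for the 10 genes except *Jak1* and *Socs2*. For *Jak1* and *Socs2* the range with each mouse left out is given. The share of counts from mitochondrial genes was 3.85%, 5.61% and 4.13% in WT mice and 2.98%, 1.91% and 3.45% in BIT mice, without overlap. The sum of the stromal markers also did not overlap, at 104 to 112 CPM in WT mice and 98.98 to 103 CPM in BIT mice. It follows *Pecam1*, as *Col1a1* had 4 to 18 counts a library, *Col1a2* 0 to 3 and *Pdgfra* 0 to 3. Of all genes tested, 12.8% did not overlap in CPM. Erythroid markers stood at 44.8 CPM in BIT replicate 2 against 1.45 to 12.8 CPM in the other libraries. The part of these in the differences between BIT and WT mice was not tested. In bulk RNA, fewer cells of a type and less RNA per cell cannot be told apart.

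None of the 10 genes was called changed between BIT and WT mice. All 10 passed the filter on low counts, and 0 of them reached a Benjamini-Hochberg adjusted p under 0.05 in limma-voom, where 0.137% of the 16105 genes tested did. The same 0 was found with edgeR's quasi-likelihood test and with DESeq2, and at an unadjusted p under 0.05 there was 1 gene, *Jak3*, against 8.57% of all genes. The log2 fold changes, BIT against WT, ran from -0.17 for *Socs3* to 0.25 for *Jak3* with a median of 0.060, beside a median of 0.012 over all genes tested. For each of the 10 genes the 95% confidence interval of the fold change lay inside 2-fold in either direction. So it did for 70.2% of all genes tested. For 9 of the 10 it lay inside 1.5-fold, as it did for 8127 of the 16105 genes tested. These intervals were not adjusted for the number of genes.

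**Figure D1:**
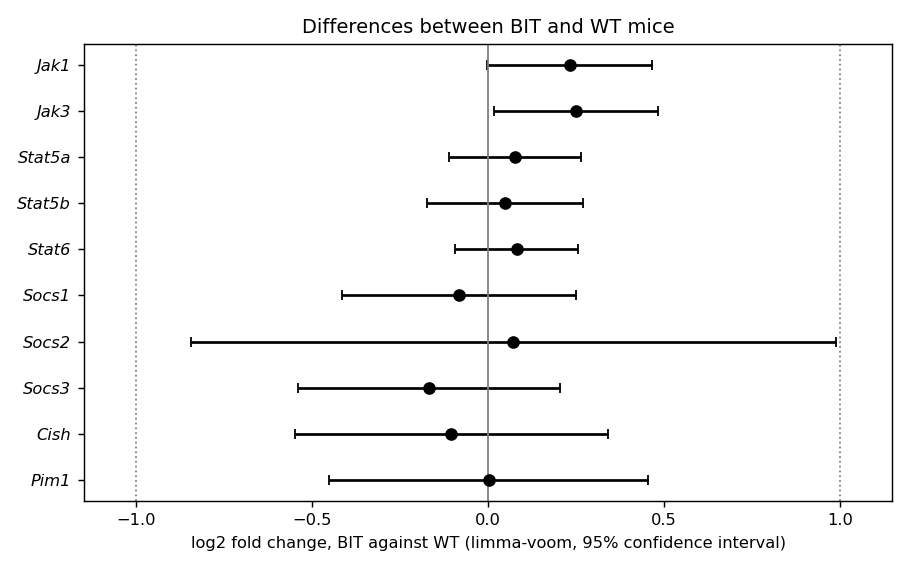
Log2 fold change of each of the 10 genes, BIT against WT, with the 95% confidence interval from limma-voom on 3 against 3 mice; dotted lines mark 2-fold in either direction. No interval reaches 2-fold, *Socs2* has the widest, and that of *Jak3* alone does not include 0.

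*Jak1* and *Jak3* encode the kinases at the top of the pathway. *Jak1*, on chromosome 4 from 101008838 to 101122487 (ENSMUSG00000028530.15), was at 1300.0, 1111 and 1102 CPM in WT replicates 1 to 3 and at 1474, 1425 and 1270.0 CPM in BIT replicates 1 to 3. In CPM, BIT replicate 3 lay below WT replicate 1, so that the groups overlapped. On the quantile-normalized log2 scale of the fit they did not. Values there were 10.28, 9.99 and 10.34 in WT mice and 10.42, 10.48 and 10.42 in BIT mice. How many of all genes lack overlap on that scale was not counted. The fitted log2 fold change was 0.23 (standard error 0.103, 95% confidence interval -0.0019 to 0.47), and the adjusted p from limma-voom was 0.586. With each mouse left out, the log2 fold change ran from 0.13, without WT replicate 2, to 0.30.

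*Jak3*, on chromosome 8 from 72123007 to 72143225 (ENSMUSG00000031805.18), was at 98.8, 84.5 and 107 CPM in WT mice and at 126, 119.9 and 112 CPM in BIT mice. In CPM, it was the only one of the 10 genes whose lowest BIT library lay above the highest WT library. An exact two-sided permutation test gave p = 0.1, which cannot go lower with 3 mice a group. This order was found in 6.35% of all genes. No overlap in either direction was seen in 12.8% of all genes. The fitted log2 fold change was 0.25 (standard error 0.102, 95% confidence interval 0.018 to 0.48), a 1.19-fold difference whose adjusted p from limma-voom was 0.559. Without WT replicate 3 it was 0.35 (adjusted p = 0.25 from limma-voom), and without WT replicate 2, the lowest library, it was 0.17 (adjusted p = 0.974 from limma-voom). The estimated counts of *Jak3* were not whole, and in each library their decimals were completed to a whole number by those of *Insl3*, a gene that took between 4.61% and 7.73% of the summed reads of both genes. The level of *Jak3* thus rests in part on how RSEM divided reads between them.

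STAT5 is made from neighbouring genes, *Stat5b* on chromosome 11 from 100671556 to 100741589 on the minus strand and *Stat5a* from 100750177 to 100776065 on the plus strand, 8.59 kb apart. *Stat5a* (ENSMUSG00000004043.15) was at 69.5, 64.0 and 59.0 CPM in WT mice and at 76.0, 73.0 and 62.6 CPM in BIT mice, and *Stat5b* (ENSMUSG00000020919.12) at 140.3, 112 and 132 CPM in WT mice and at 137, 150.4 and 126 CPM in BIT mice. The groups overlapped for either gene. The log2 fold changes were 0.076 for *Stat5a* (95% confidence interval -0.11 to 0.26) and 0.048 for *Stat5b* (-0.17 to 0.27), and the adjusted p from limma-voom was 0.817 and 0.911.

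The near-identical sequences of *Stat5a* and *Stat5b* let reads match both. Their estimated counts were fractional in each library, for example 3572.08 and 7215.92 in WT replicate 1, and added to a whole number in all 6, here to 10788. The sum, which does not depend on the division, was at 192 ± 17.1 CPM (SD, n = 3) in WT and 208 ± 17.9 CPM (SD, n = 3) in BIT libraries (exact permutation test, two-sided, p = 0.3). *Stat5a* took 33.5% ± 2.79 (SD, n = 3) of the sum in the WT libraries and 33.8% ± 1.60 (SD, n = 3) in the BIT libraries (exact permutation test, two-sided, p = 0.9). Per kilobase of annotated exon, *Stat5b* was above *Stat5a* in each library, by between 2.08 and 2.67 times.

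*Stat6*, on chromosome 10 from 127477821 to 127496862 (ENSMUSG00000002147.19), carries signals of IL-4. It was at 203, 179 and 168 CPM in WT mice and at 204, 215 and 189 CPM in BIT mice, overlapping groups with a log2 fold change of 0.082 (95% confidence interval -0.093 to 0.26) and an adjusted p of 0.793 from limma-voom. Without WT replicate 3 the log2 fold change was 0.049 for *Stat5a*, 0.10 for *Stat5b* and 0.045 for *Stat6*. In each of these 5 kinase and STAT genes the mean level was higher in BIT than in WT mice, with 0 of them past the adjusted threshold and an interval that did not include 0 for *Jak3* alone. Of all genes tested, 47.7% had a log2 fold change below 0. Without WT replicate 2, that of *Stat5b* was -0.035.

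**Figure D2:**
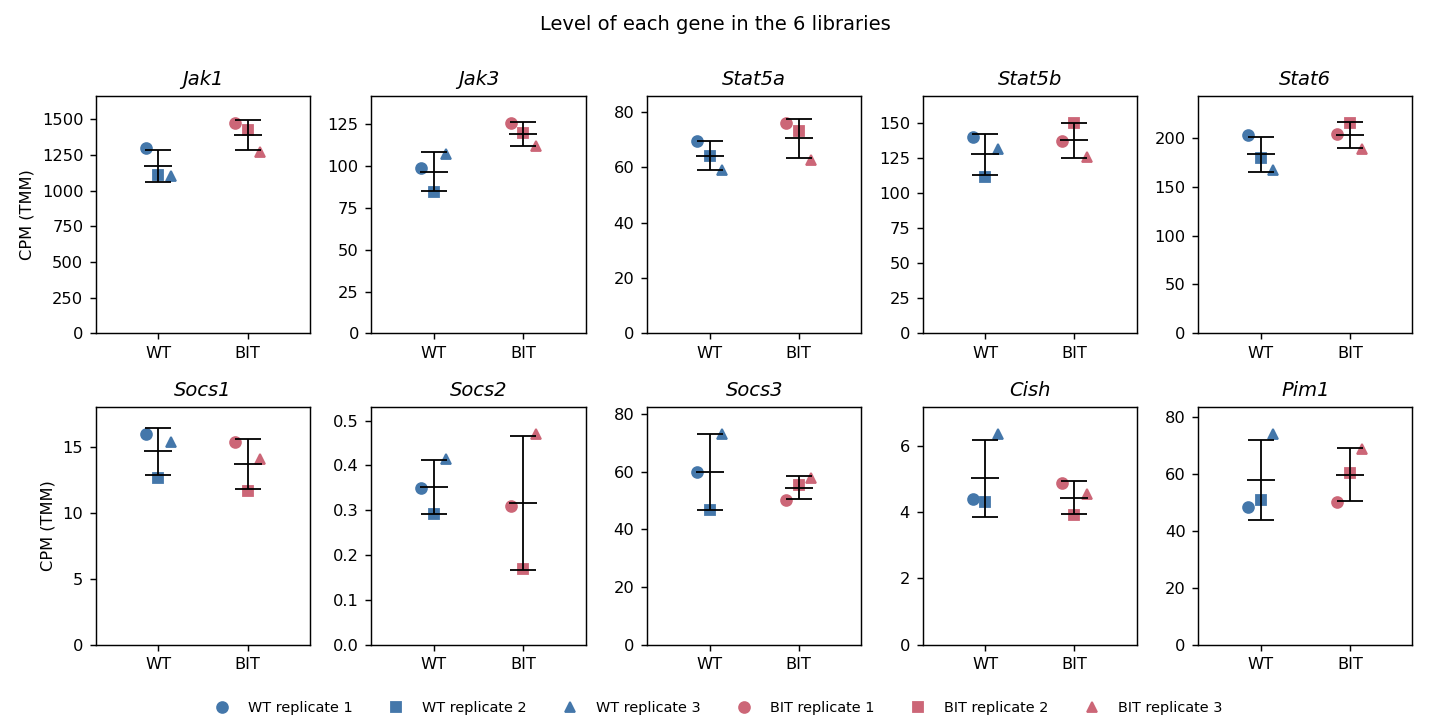
TMM-scaled CPM of each of the 10 genes on a linear axis from 0, with 1 point per library, the shape giving the replicate, and the mean with its SD (n = 3) in black. The groups overlap in each gene but *Jak3*, whose BIT mice lie between 112 and 126 CPM and whose WT mice lie between 84.5 and 107 CPM, and WT replicate 3 is the highest library for *Socs3*, *Cish* and *Pim1*.

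Among the feedback genes, *Socs3* and *Socs1* had the most RNA. *Socs3*, which blocks JAK kinases at receptors such as that of IL-6, lies on chromosome 11 from 117856905 to 117860898 (ENSMUSG00000053113.4) and was at 59.9, 46.7 and 73.1 CPM in WT mice and at 50.4, 55.3 and 58.0 CPM in BIT mice. The 3 BIT libraries lay within the range of the WT libraries. Its log2 fold change of -0.17 (95% confidence interval -0.54 to 0.21, adjusted p = 0.80 from limma-voom) was 0.012 without WT replicate 3.

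*Socs1*, a direct inhibitor of JAK kinases on chromosome 16 from 10600104 to 10603875 (ENSMUSG00000038037.6), was at 16.0, 12.7 and 15.4 CPM in WT mice and at 15.4, 11.7 and 14.1 CPM in BIT mice. Here too the groups overlapped (log2 fold change -0.083, 95% confidence interval -0.42 to 0.25, adjusted p = 0.90 from limma-voom), and without WT replicate 3 the difference was -0.029. The level of *Socs3* was 4.06 ± 0.601 times that of *Socs1* in CPM in WT mice and 4.03 ± 0.729 times in BIT mice (SD, n = 3), values not scaled by length (exact permutation test, two-sided, p = 0.9).

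*Cish* encodes CIS, an inhibitor of IL-2 and T cell receptor signals, and lies on chromosome 9 from 107173225 to 107179983 (ENSMUSG00000032578.8). It was at 4.38, 4.30 and 6.34 CPM in WT mice, from 206 to 276 counts a library, and at 4.88, 3.89 and 4.52 CPM in BIT mice, from 161 to 205 counts. WT replicate 3 stood above the other 5 libraries, which ran from 3.89 to 4.88 CPM with the groups mixed. For *Cish*, with the 4 STAT5-type sites shown above, the difference was -0.10 on the log2 scale (95% confidence interval -0.55 to 0.34, adjusted p = 0.906 from limma-voom), and without WT replicate 3 it was 0.022.

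*Socs2*, which restrains growth hormone signalling, lies on chromosome 10 from 95219523 to 95253929 (ENSMUSG00000020027.19) and was close to the limit of detection. The WT libraries held 18, 14 and 18 of its counts and the BIT libraries 13, 7 and 19, where a count of 0 would allow up to 3 counts in a library. With so few counts, its 95% confidence interval of the fold change reached from 0.557 to 1.98 (adjusted p = 0.968 from limma-voom), so that a difference smaller than this was not detectable at this depth. Its fitted log2 fold change of 0.072 changed sign with TMM normalization, to -0.25.

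*Pim1* lies on chromosome 17 from 29709581 to 29715086 (ENSMUSG00000024014.9), 4.70 Mb from *Psmb8*, the gene that carries the insertion. It was at 48.6, 50.9 and 74.1 CPM in WT mice and at 50.1, 60.4 and 68.7 CPM in BIT mice. Replicate 3 was the highest library of either group, and the log2 fold change between groups was 0.0020 (95% confidence interval -0.45 to 0.46, adjusted p = 0.998 from limma-voom). Without WT replicate 3 it was 0.22 and without WT replicate 1 it was -0.15.

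Summed over *Cish*, *Socs1*, *Socs2* and *Socs3*, the inhibitors were at 79.9 ± 15.7 CPM (SD, n = 3) in WT and 73.1 ± 3.53 CPM (SD, n = 3) in BIT libraries (exact permutation test, two-sided, p = 0.6). Relative to the mean, the SD between WT mice was 22.1% for *Socs3*, 23.1% for *Cish*, 24.3% for *Pim1* and 12.0% for *Socs1*, against 8.17% to 11.8% for the 5 kinase and STAT genes. Between BIT mice it was 7.07%, 11.3%, 15.6% and 13.7% for the same genes in turn, against 5.80% to 10.0%. In CPM, WT replicate 3 was the highest library for 3 of the 10 genes, *Socs3*, *Cish* and *Pim1*, and the lowest for 3 others, *Jak1*, *Stat5a* and *Stat6*. On the quantile-normalized scale of the fit, its value for *Jak1*, 10.34, was instead above those of WT replicates 1 and 2. The summed level of 5 myeloid markers was between 10.5 and 15.7 CPM in WT mice and between 7.54 and 9.76 CPM in BIT mice, with 4 of the 5 past the filter and *Cd14* at 3 counts in 1 library, and its part in the levels of the inhibitors was not tested.

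**Figure D3:**
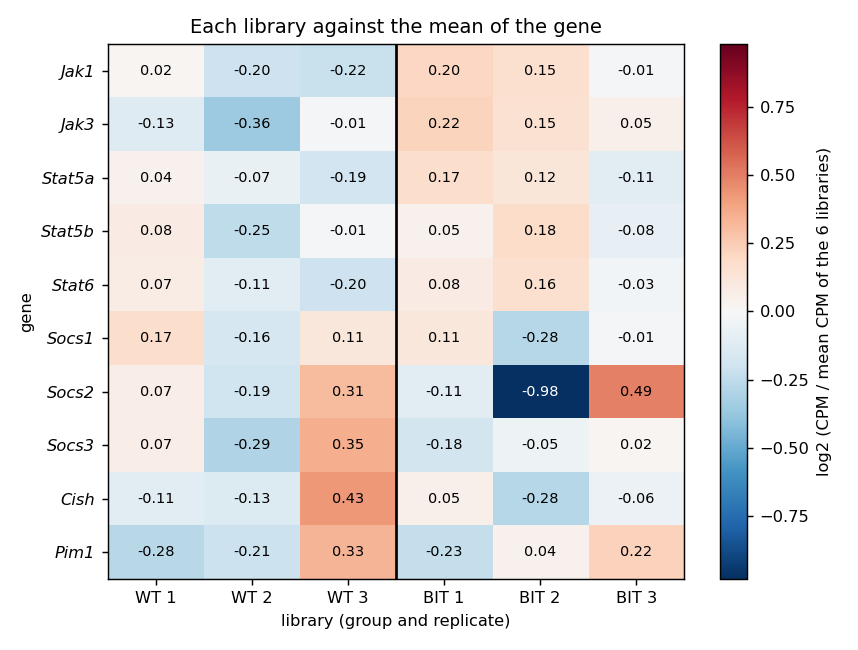
Log2 of each library's CPM over the mean of the 6 libraries for each gene, with blue below and red above the mean and the value printed in each cell. *Socs3*, *Cish* and *Pim1* stand at 0.35, 0.43 and 0.33 in WT replicate 3. *Jak1*, *Jak3*, *Stat5a*, *Stat5b* and *Stat6* stand above their mean in BIT replicates 1 and 2. *Socs2* reaches -0.98 in BIT replicate 2, where it had 7 counts.

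Genes that answer to stimulation and to cell handling within minutes did not vary alike. The 13 immediate early and activation genes summed to 998, 939 and 1258 CPM in WT mice and to 725, 598 and 1126 CPM in BIT mice, with replicate 3 highest in either group. Among genes named after their values were seen, *Fos*, *Jun*, *Junb*, *Dusp1* and *Btg2* were highest in replicate 3 of each group, whereas *Egr1*, *Egr2* and *Nr4a1* were lowest there. By limma-voom 0 of the 13 passed an adjusted p of 0.05 (also 0 with edgeR and DESeq2), while 6 were lower in BIT mice at an unadjusted p under 0.05, where 4.32% of all genes were, and 0 were higher. Counted in either direction, they were 1 without BIT replicate 1 or without BIT replicate 2, 3 without WT replicate 1 or without WT replicate 3, 8 without BIT replicate 3, and 2 with edgeR or DESeq2. The share over all genes in these fits was 6.88%, 3.84%, 7.5%, 11.7%, 10.8%, 7.44% and 7.21%, in turn. *Dusp1*, a phosphatase of MAP kinases, was at 33.5, 32.2 and 76.1 CPM in WT mice and at 5.45, 2.61 and 51.4 CPM in BIT mice. The log2 fold change was -0.58 for *Junb*, an AP-1 factor, and -0.43 for *Zfp36*, which hastens the decay of cytokine mRNA, both at an adjusted p of at least 0.531 from limma-voom. The other 3, named after their values were seen, were *Fosb*, *Jun* and *Dusp2*. In replicates 1 and 2 alone, *Dusp1*, *Junb*, *Jun*, *Fosb* and *Fos* passed an adjusted p of 0.05, whereas 0 of the 10 genes of the STAT5 pathway did. Of all genes tested in that fit, 0.439% passed. The part of these genes in the levels of *Socs3*, *Cish* and *Pim1* was not tested.

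Levels can be compared between genes only per length. Per kilobase of annotated exon, the mean over the 6 libraries was 118 CPM for *Jak1*, 28.9 for *Stat6*, 19.2 for *Stat5b*, 16.8 for *Pim1*, 16.1 for *Socs3*, 13.9 for *Jak3*, 8.16 for *Stat5a*, 4.20 for *Socs1*, 0.735 for *Cish* and 0.0219 for *Socs2*. The ranges of *Stat5b* and *Pim1*, of *Pim1* and *Socs3* and of *Socs3* and *Jak3* overlapped, so that these neighbours are not separated by the spread between libraries. The ranges of the other neighbours did not overlap, and *Jak1*, the kinase shared by the receptors of the γ chain, IL-6 and interferons, stood above *Stat6* in all 6 libraries. *Jak1* was above *Jak3* by between 7.40 and 9.46 times per kilobase, with means of 8.77 ± 1.19 in WT mice and 8.37 ± 0.204 in BIT mice (SD, n = 3, exact permutation test, two-sided, p = 0.6). The exon length is that of all annotated transcripts together, 15258 bases for *Socs2*, which lowers the value of genes with long minor transcripts.

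**Figure D4:**
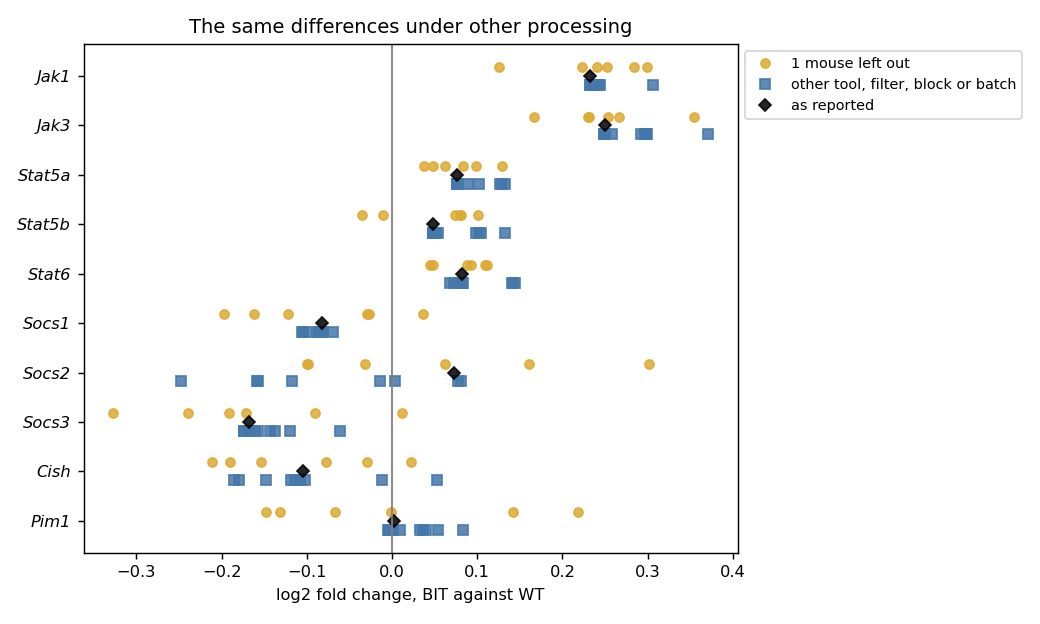
Log2 fold change of each gene, BIT against WT, as reported (black), with 1 mouse left out (yellow) and with another tool, filter, weighting, block or batch term or without replicate 3 (blue). *Jak1*, *Jak3*, *Stat5a* and *Stat6* stay above 0 throughout, with *Jak1* between 0.13 and 0.31 and *Jak3* between 0.17 and 0.37, and the other 6 genes cross 0 under at least 1 alternative.

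Genes around the pathway were counted by lists. Among 8 receptor genes that work through JAK1 and JAK3, 1 was called, *Il2rb*, the β chain of the receptors for IL-2 and IL-15, at 261, 215 and 250.2 CPM in WT mice and 419, 451 and 422 CPM in BIT mice (log2 fold change 0.77, standard error 0.0894, adjusted p = 0.025 from limma-voom), where 0.0807% of all genes were called higher. With a mouse left out, its log2 fold change stayed between 0.70 and 0.84, while the call was kept without WT replicate 3 and lost without any 1 of the other 5 mice, at adjusted p-values of 0.0690 to 0.244 from limma-voom. *Il7r* was at 708, 612 and 648 CPM in WT mice and at 1022, 955 and 983 CPM in BIT mice (adjusted p = 0.154), and *Il2ra*, the α chain that activated cells add, at 2.68, 2.40 and 3.24 CPM in WT mice and 1.78, 1.67 and 1.66 CPM in BIT mice (adjusted p = 0.547, both from limma-voom), an order without overlap that 6.41% of all genes showed. At an unadjusted p under 0.05 there were 3 higher and 1 lower, against 4.25% and 4.32% of all genes, with *Il4ra*, named after its values were seen, among the higher. Together they were 2 without WT replicate 1, BIT replicate 2 or BIT replicate 3, where 7.5%, 3.84% and 10.8% of all genes were, in turn. The cytokines themselves, *Il2*, *Il4*, *Il7*, *Il9*, *Il15* and *Il21*, summed to at most 0.271 CPM in any library, and 0 of the 6 passed the filter.

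Of 14 further genes induced through STAT5 in T cells, 0 were called by limma-voom and 0 by edgeR. DESeq2 called 1, *Pim2*, and 0.94% of all genes. Of the 14, 6 had a log2 fold change below 0, where 47.7% of all genes did. The median was 0.16, or between 0.084 and 0.28 with a mouse left out, beside 0.012 over all genes tested. At an unadjusted p under 0.05, 5 were higher and 1 lower in BIT mice, where 4.25% and 4.32% of all genes were. *Pim2*, a kinase of the family of *Pim1*, was at 88.0, 82.9 and 88.7 CPM in WT mice and at 115, 114 and 116 CPM in BIT mice (log2 fold change 0.35, standard error 0.08, adjusted p = 0.312 from limma-voom). For *Ccnd2*, a cyclin of the G1 phase, the difference was 0.36 on the log2 scale (adjusted p = 0.358), and for *Prf1*, which encodes perforin, it was 0.27 (adjusted p = 0.424, both from limma-voom). The other 2 higher genes, named after their values were seen, were *Bcl2* and *Ccnd3*, and the lower one was *Il2ra*. Of the 2 genes listed as repressed through STAT5, *Bcl6* and *Il7r*, 0 were called by limma-voom and 1, *Il7r*, by DESeq2. Both had a log2 fold change above 0, and whether STAT5 acts on them in these cells was not tested.

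Among the other 6 JAK and STAT genes, 0 were called by limma-voom, edgeR or DESeq2, the median log2 fold change was 0.18, and *Stat3* (0.24, adjusted p = 0.531) and *Stat4* (0.18, adjusted p = 0.559, both from limma-voom) had an unadjusted p under 0.05, where 8.57% of all genes did. Without WT replicate 2, BIT replicate 1 or BIT replicate 2, 0 of the 6 had one, where 4.78%, 6.88% and 3.84% of all genes did, in turn. Of 16 other negative regulators of the pathway, such as further SOCS, PIAS and phosphatase genes, 0 were called by limma-voom, edgeR or DESeq2 and 3 had a log2 fold change below 0, where 47.7% of all genes did, with a median of 0.15. Their 2 genes at an unadjusted p under 0.05 were *Ptprc*, which encodes CD45, and *Socs5*, with log2 fold changes of 0.32 and 0.24. There were 0 such genes with TMM, with edgeR, without WT replicate 2 or without BIT replicate 2. In these fits 8.28%, 7.44%, 4.78% and 3.84% of all genes passed, in turn. The log2 fold change of *Ptprc* was 0.074 with TMM normalization.

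**Figure D5:**
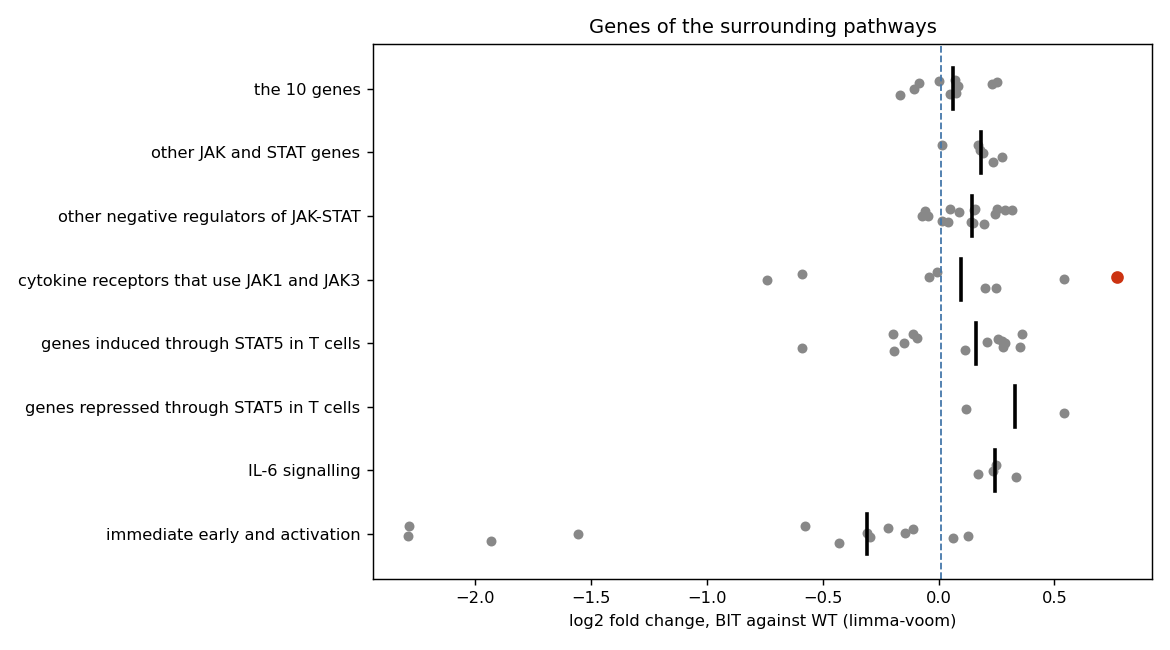
Log2 fold change, BIT against WT, of each gene tested in the 10 genes and in the surrounding lists (points), with the median of each list (black bar) and that of all genes tested (dashed line, 0.012). *Il2rb* at 0.77 (red) is the gene with an adjusted p under 0.05, and the immediate early genes reach -2.29.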

How the data were processed

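Libraries were made from total RNA after removal of ribosomal RNA and sequenced as pairs. The values deposited by the authors are estimated counts per gene, not normalized, made with cutadapt 1.18, STAR 2.7.0f and RSEM 1.3.1 on GRCm39 and Gencode M38; the strand setting is not given in the sources used here. The counts were rounded, and BIT was compared with WT by limma 3.58.1 (voom, quantile normalization) in R 4.3.3, after the study's methods, on the 16105 genes that passed filterByExpr (edgeR 4.0.16), with p-values adjusted over all of them after Benjamini and Hochberg. CPM in the text are scaled by TMM. Alternatives were TMM, edgeR, DESeq2 1.42.0, other filters, quality weights, a block, a batch term for replicate 3, replicates 1 and 2 alone and each mouse left out. The 10 genes, the lists (other JAK and STAT genes, negative regulators, receptors, cytokines, genes induced or repressed through STAT5, IL-6 signalling, immediate early genes) and the markers were chosen with earlier results of these data known, and lists are described by counts and medians without a test. A further list is not reported here. Named were the 10 genes and, per list, genes with an adjusted p under 0.05 and the 3 of smallest unadjusted p under 0.05. Positions and exon lengths are from Gencode M39 on GRCm39, which holds 78263 of 78275 identifiers. Limits from a count of 0 cover counting error only. Total counts per library ranged from 37467678 to 52922675, which sets the precision of low genes such as *Socs2*.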

Additional observations from a re-analysis of the deposited data

How the results depend on the processing

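None of the 10 genes passed an adjusted p of 0.05 under any of the 15 other fits. At an unadjusted p under 0.05, 1 did in the main fit, where 8.57% of all genes did, and both moved with the processing. The count was 2 with TMM, DESeq2, no filter, quality weights, replicate 3 as a batch, replicates 1 and 2 alone or without WT replicate 3. The share over all genes there was 8.28%, 7.21%, 7.05%, 12.4%, 14.4%, 14.3% and 11.7%, in turn. The count was 0 without WT replicate 2 or without any 1 of the BIT mice. That share was then 4.78% without WT replicate 2 and 6.88%, 3.84% and 10.8% without BIT replicates 1, 2 and 3. Over all genes the number called, 22, was 14 with edgeR, 125 with DESeq2, 42 with replicate 3 as a batch, 71 in replicates 1 and 2 alone, 1380 at an unadjusted p under 0.05, and with a mouse left out from 1, lacking WT replicate 1, to 37, lacking WT replicate 3. Among the pathway lists the 1 called gene became 3 with DESeq2, 2 without a filter, 2 with replicate 3 as a batch, 6 in replicates 1 and 2 alone, and 0 to 1 with a mouse left out. The deviations of same-numbered samples from their group means correlated at 0.203, 0.0164 and 0.396 for replicates 1, 2 and 3, with only replicate 3 closest to its own number, so that the numbers were not taken as pairs, and with the replicate block 21 genes were called over all genes, 1 in the lists and 0 of the 10.

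Signs of uncalled differences turned as follows, and the cause was not tested. *Socs2* went to -0.25 with TMM, -0.16 with edgeR, -0.16 with DESeq2, -0.014 without a filter and -0.12 in replicates 1 and 2 alone, and *Cish* to 0.053 in replicates 1 and 2 alone. *Pim1* went to -0.0034 with the replicate block and -0.0045 with replicate 3 as a batch. With each mouse left out, *Stat5b* ran from -0.035 to 0.10, *Socs1* from -0.20 to 0.036, *Socs2* from -0.10 to 0.30, *Socs3* from -0.33 to 0.012, *Cish* from -0.21 to 0.022 and *Pim1* from -0.15 to 0.22. *Socs2* could not be fitted at a mean of at least 1 CPM, and DESeq2 gave it no adjusted p. As 3 libraries per group are few and *Socs2* had at most 19 counts, small differences of the low genes were not detectable.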

Other observations

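STAT3, a relative of STAT5, carries signals of IL-6 through the receptor chains encoded by *Il6ra* and *Il6st*. Of the 4 genes of the IL-6 signalling list, 0 were called by limma-voom, edgeR or DESeq2, but all 4 were higher in BIT mice at an unadjusted p under 0.05, where 4.25% of all genes were, with a median log2 fold change of 0.24. That count was 0 without WT replicate 2, 1 without BIT replicate 1 or BIT replicate 2, 2 without BIT replicate 3, and 3 with edgeR. Over all genes, in either direction, the share in these fits was 4.78%, 6.88%, 3.84%, 10.8% and 7.44%, in turn. *Il6ra* was at 184, 152 and 169.8 CPM in WT mice and at 201, 213 and 211 CPM in BIT mice (log2 fold change 0.25, adjusted p = 0.531 from limma-voom), and for *Bcl3*, a partner of NF-κB, the difference was 0.33 on the log2 scale (adjusted p = 0.559, likewise from limma-voom). *Stat3* is also among the JAK and STAT genes above, and *Il6st* was named after its values were seen.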
